A study of Mus musculus with 10 samples.

Results

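The 9 genes *Nes*, *Vim*, *Prom1*, *Vcam1*, *Cd9*, *Cd24a*, *Fabp7*, *Thbs4* and *Msi1* are used as markers of neural stem cells or their quiescent and activated states, and they are 9 of the 21911 protein-coding genes whose transcription start sites (TSSs) were used. Their chromatin was described in mouse neural stem and progenitor cells (NSPCs). A site was given to a gene when a peak in the gene body or within 50 kb of it had a TSS of that gene as its nearest protein-coding TSS. By this rule, 64 of the 108367 ATAC-seq sites of the series and 15 of its 17468 regions with H3K4me3 belonged to the 9 genes. Membership did not depend on how strong a peak was or in which state it was called.

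NSPCs from C57BL/6 mice at postnatal day 5 were grown as cultures and used at low passage, so that each library is a mixture of stem and progenitor cells. Activated NSPCs grew with 20 ng/ml EGF and 20 ng/ml FGF2. Quiescent NSPCs were kept without EGF, with 20 ng/ml FGF2 and 25 ng/ml BMP4, for 4 days according to the labels, whereas the methods give a shorter time. Reactivated NSPCs had 4 days of BMP4 and were then returned to the medium with EGF and FGF2 for 9 to 12 days. All groups thus received FGF2, and the quiescent and activated media differ in both BMP4 and EGF, whose parts cannot be told apart. ATAC-seq, which marks DNA open to the Tn5 transposase, was done on 2 libraries per state. H3K4me3, a histone mark of promoters in use, was mapped by ChIP-seq in 1 quiescent and 1 activated library. The study describes the libraries of a state as biological replicates, the labels do not say whether they came from separate animals, and p-values measure the spread between these libraries.

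*Nes* and *Vim* encode the intermediate filaments nestin and vimentin, which fill the processes of radial glia and neural progenitors. *Prom1* (CD133), *Vcam1*, *Cd9* and *Cd24a* encode surface proteins by which neural stem cells, their progeny and niche cells are sorted, and VCAM1 and the tetraspanin CD9 take part in adhesion. *Fabp7* encodes a fatty acid binding protein of radial glia, *Thbs4* a secreted thrombospondin of the matrix, and *Msi1* the RNA-binding protein Musashi-1. In promoters and enhancers, nucleosomes give way to transcription factors, and such sites are cut more often by Tn5 than the DNA around them.

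The measure of accessibility is the fold enrichment (FE), the ratio of the reads piled up at the top of a peak to the background of the same library. It is not scaled between libraries. The 6 ATAC-seq lists held 47037 to 106830 peaks after those outside the main chromosomes were removed, and the reactivated lists were the longest. The background pileup, estimated from the deposited values, ranged from 6.01 reads in activated replicate 2 to 12.1 reads in quiescent replicate 2. In each library, 99% of peaks had an FE above a level that lay between 1.93 and 2.31, and a missing peak stands for a signal too low to be called, not for closed chromatin. The promoters of *Sox2* and *Sox9*, genes of neural stem cells, had a peak in all 6 libraries, and that of *Slc1a3* had one in 4, with none in the 2 activated libraries. No library had a promoter peak at the 2 oligodendrocyte genes examined (*Mog* and *Mag*). Promoter peaks were found at 2 or 3 of 4 genes of neuroblasts and neurons, at 1 or 2 of 3 ependymal, 0 or 1 of 3 endothelial and 0 or 1 of 4 microglial genes in a library. An open promoter is not expression, and the part of other cell types in the results was not tested.

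Of the 64 sites, 14 lay within 1 kb of a TSS (promoter sites), 18 in introns of the 9 genes, 29 between genes and 3 in other genes. *Cd9* had 16 sites, more than 96.2% of protein-coding genes, *Thbs4* had 9 and *Nes* 8, while the median gene had 2. *Cd24a* and *Fabp7* had 6 sites each, *Vim*, *Vcam1* and *Msi1* had 5 each and *Prom1* had 4. The windows that bring in sites grow with the gene body, which measures 3.57 kb at *Fabp7* and 108 kb at *Prom1*. The quiescent libraries had a peak at 30 and 35 of the 64 sites, the activated libraries at 37 and 30, and the reactivated libraries at 52 and 50. The FE of these peaks went from 1.98 to 20.5.

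**Figure D1:**
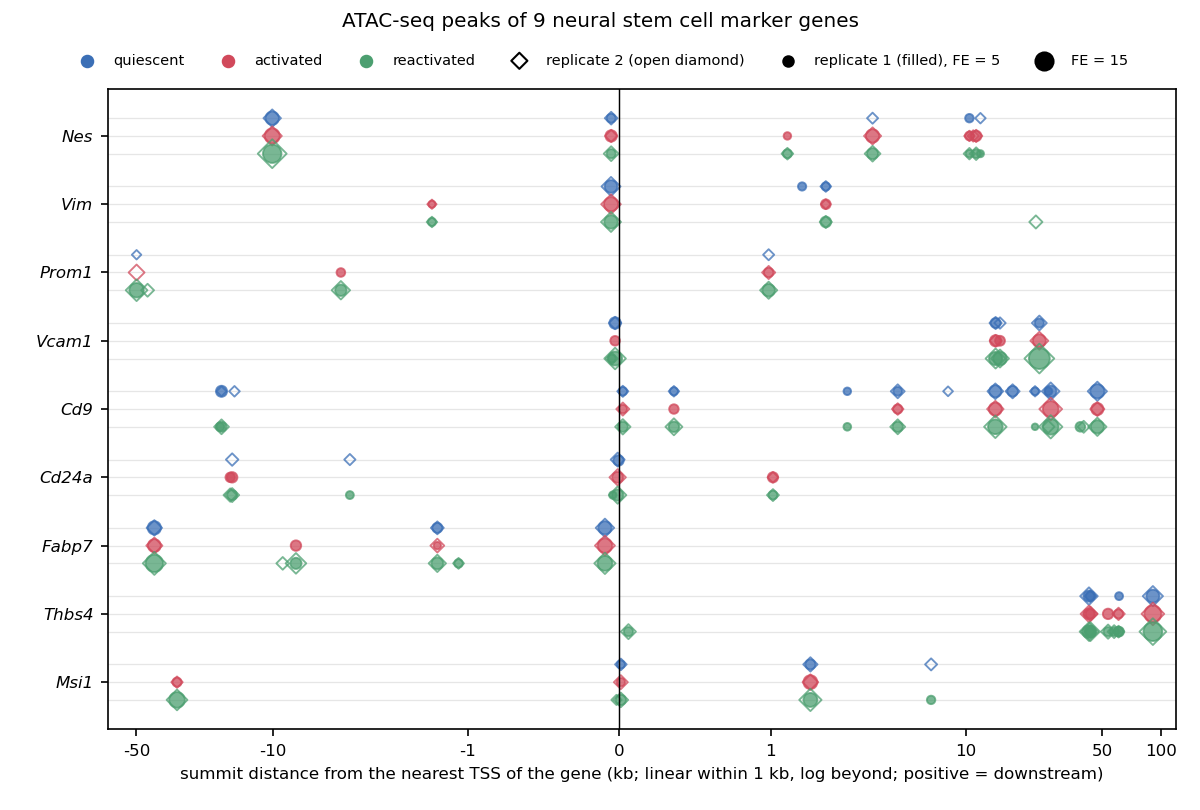
ATAC-seq peaks of the 9 genes, placed by the distance of the summit from the nearest TSS of the gene in kb (linear within 1 kb, logarithmic beyond). Each gene has a row for quiescent (blue), activated (red) and reactivated (green) NSPCs, with filled circles for replicate 1, open diamonds for replicate 2 and an area that grows with FE. *Thbs4* is the gene with no promoter peak in the quiescent and activated rows, and *Cd9* carries 16 sites.

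The 7 DNA stretches that follow are shown because the results turn on them: 2 strong or state-dependent sites of *Nes*, the *Vcam1* site that was highest in reactivated cells, 3 *Cd9* sites that moved in different directions and the upstream *Msi1* site. Each is the 200 bp around the summit of the strongest peak, read 5′ to 3′ on the forward strand of GRCm38 (mm10) at chr3:87960935-87961134, chr3:87974358-87974557, chr3:116104948-116105147, chr6:125447305-125447504, chr6:125467377-125467576, chr6:125477281-125477480 and chr5:115398525-115398724. Capitals mark matches, on either strand, to TTGGC (a half-site of NFI factors), CAGCTG (an E-box), ACAATG (SOX), TGCAAAT (POU), TGANTCA (AP-1), TGGGAA (RBPJ), CCAAT (NFY) and GGGCGG (SP and KLF factors). TTGGC and CCAAT overlap where they stand on opposite strands.
Nes, 10.1 kb upstream: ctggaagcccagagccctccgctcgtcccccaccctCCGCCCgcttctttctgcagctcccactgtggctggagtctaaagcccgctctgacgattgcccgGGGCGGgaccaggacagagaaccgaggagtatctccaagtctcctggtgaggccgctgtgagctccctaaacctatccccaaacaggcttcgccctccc
Nes, intron 2: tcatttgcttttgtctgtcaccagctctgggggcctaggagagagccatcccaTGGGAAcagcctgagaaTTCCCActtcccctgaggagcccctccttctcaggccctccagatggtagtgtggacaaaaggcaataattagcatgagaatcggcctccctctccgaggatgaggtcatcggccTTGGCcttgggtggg
Vcam1, 23.9 kb downstream of the TSS: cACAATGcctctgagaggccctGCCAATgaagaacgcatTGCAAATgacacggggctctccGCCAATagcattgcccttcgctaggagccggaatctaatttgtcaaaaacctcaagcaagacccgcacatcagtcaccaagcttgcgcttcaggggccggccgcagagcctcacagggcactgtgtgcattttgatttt
Cd9, 47.4 kb downstream of the TSS: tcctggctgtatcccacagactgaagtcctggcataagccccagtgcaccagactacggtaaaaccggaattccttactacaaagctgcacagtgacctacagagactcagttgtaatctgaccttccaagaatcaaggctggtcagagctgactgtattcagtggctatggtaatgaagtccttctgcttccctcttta
Cd9, intron 2: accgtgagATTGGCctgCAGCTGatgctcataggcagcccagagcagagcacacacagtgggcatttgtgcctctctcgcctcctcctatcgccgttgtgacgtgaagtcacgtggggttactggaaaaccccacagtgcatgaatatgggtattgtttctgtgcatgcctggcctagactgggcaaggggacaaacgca
Cd9, intron 1: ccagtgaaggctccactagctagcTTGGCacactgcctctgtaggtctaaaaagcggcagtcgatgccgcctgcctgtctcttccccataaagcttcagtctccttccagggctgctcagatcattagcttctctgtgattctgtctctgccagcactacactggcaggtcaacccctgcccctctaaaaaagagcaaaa
Msi1, 31.0 kb upstream: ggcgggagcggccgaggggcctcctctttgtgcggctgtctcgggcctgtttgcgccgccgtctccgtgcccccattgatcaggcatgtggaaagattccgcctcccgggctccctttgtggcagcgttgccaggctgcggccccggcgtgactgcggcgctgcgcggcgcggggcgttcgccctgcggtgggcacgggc

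The *Vcam1* stretch held the most matches, with ACAATG at bases 2 to 7, TGCAAAT at bases 40 to 46 and a pair of CCAAT boxes, each overlapping a TTGGC on the other strand. The *Nes* intron 2 stretch held 2 matches to TGGGAA and 1 to TTGGC, and the upstream *Nes* stretch 2 matches to GGGCGG. The *Cd9* intron 2 stretch held CAGCTG at bases 18 to 23 beside overlapping TTGGC and CCAAT, the *Cd9* intron 1 stretch held 1 TTGGC, and no match was found in the *Cd9* stretch 47.4 kb from the TSS or in the *Msi1* stretch. Over windows of this length at all 64 sites, TTGGC was present in 45.3% (44.6% of windows at all 108367 sites), CAGCTG in 21.9% (21.7%), TGGGAA in 20.3% (19.0%), CCAAT in 28.1% (23.7%), GGGCGG in 17.2% (15.5%), ACAATG in 10.9% (11.5%), TGCAAAT in 4.69% (3.64%) and TGANTCA in 3.12% (7.62%). The share for TGANTCA, 2 of 64 windows, was the one farthest from that over all sites relative to its size, and a match describes the letters alone. The median GC content of the windows was 63.5% at the 14 promoter sites and 53% at the other 50.

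By presence of peaks, 20 of the 64 sites (31.2%) had a peak in all 6 libraries, against 21.3% of all 108367 sites. Of the 36 member sites with a peak in 2 or more quiescent or activated libraries, 3 (8.33%) were specific to quiescent cells, with a peak in both quiescent and in neither activated library, against 14.7% of 46050 such sites. A further 5 of the 36 (13.9%) were specific to activated cells in the same sense, against 9.97%. All 5 of these were open in both reactivated libraries, as were 91.9% of the 4592 activated-specific sites of the genome. Of the 3 quiescent-specific sites, 1 was open in both reactivated libraries, against 55% of all 6787. Both reactivated libraries, and no other, had a peak at 5 of the 64 sites (7.81%), against 14.8% of all sites. The reactivated lists hold far more peaks than the others. When every list was limited to its strongest peaks, as many as the shortest holds, the sites open in reactivated cells alone went from 5 to 0 and the quiescent-specific ones from 3 to 1. All sites were not counted in this way, so whether the drop is particular to the member sites was not tested.

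The quiescent-specific sites all belonged to *Cd9*, and the activated-specific ones were 1 each at *Nes*, *Vim*, *Cd24a*, *Thbs4* and *Msi1*. *Prom1*, *Vcam1* and *Fabp7* had neither. The sites of reactivated cells alone were 3 at *Thbs4*, among them its promoter, and 1 each at *Vcam1* and *Fabp7*. With a single quiescent library in place of 2, the quiescent-specific sites went from 3 to 8, whichever replicate was left out. Without activated replicate 2, the activated-specific sites went from 5 to 10, and without reactivated replicate 1 the sites of reactivated cells alone went from 5 to 11. The definitions ask for fewer peaks when a library is left out, so such counts tend to rise by construction. They were not set against all sites under the same change.

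At the 20 sites with a peak in all 6 libraries, FE could be compared across the states. Each library was centred on its median log2 FE over the 23116 such sites of the genome, and limma was fitted to all of them, with Benjamini-Hochberg adjustment. Before centring, the library medians were 0.22 higher in activated than in quiescent cells on the log2 scale, 0.87 higher in reactivated than in quiescent cells and 0.65 higher in reactivated than in activated cells. Every difference given here is relative to these shifts. Between activated and quiescent cells, 1 of the 20 member sites was higher (6.35% of all sites tested were) and 1 was lower (7.05%). Between reactivated and quiescent cells, 1 was higher (11.5%) and 4 were lower (25.7%). Between reactivated and activated cells, 1 was higher (7.66%) and 4 were lower (14.5%). The median difference over the 20 sites was 0.0049, −0.19 and −0.16 in these comparisons, and −0.07, −0.15 and −0.11 over all sites. The comparisons share libraries and are not independent of each other.

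The split of calls depended on the scale. Without centring, 3 member sites were higher and 0 lower in activated than in quiescent cells, 12 were higher and 0 lower in reactivated than in quiescent cells, and 7 were higher and 0 lower in reactivated than in activated cells, of 20 each. Of all sites tested, 9.46%, 68.2% and 52.6% were then called higher in these 3 comparisons. Over the genome the higher calls then made up 83.2%, 99.2% and 99.1% of all calls, against 47.4%, 30.8% and 34.5% with centring and 56.5%, 49.2% and 51.1% with quantile normalization. With quantile normalization, the member calls were 1 higher and 1 lower, 2 higher and 2 lower, and 1 higher and 3 lower, where 6.03% and 4.63%, 13.6% and 14.1%, and 9.31% and 8.92% of all sites were called higher and lower. With reactivated replicate 1 or replicate 2 left out, which leaves 1 library in that state, no member call between reactivated and activated cells held. Calls over all sites also became far fewer, so this loss is not particular to the member sites. Against quiescent cells, the call at the *Nes* promoter was lost without quiescent replicate 1, quiescent replicate 2 or either reactivated library, that at the *Fabp7* promoter without quiescent replicate 2 or either reactivated library, and that at the *Vim* promoter without quiescent replicate 2.

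**Figure D2:**
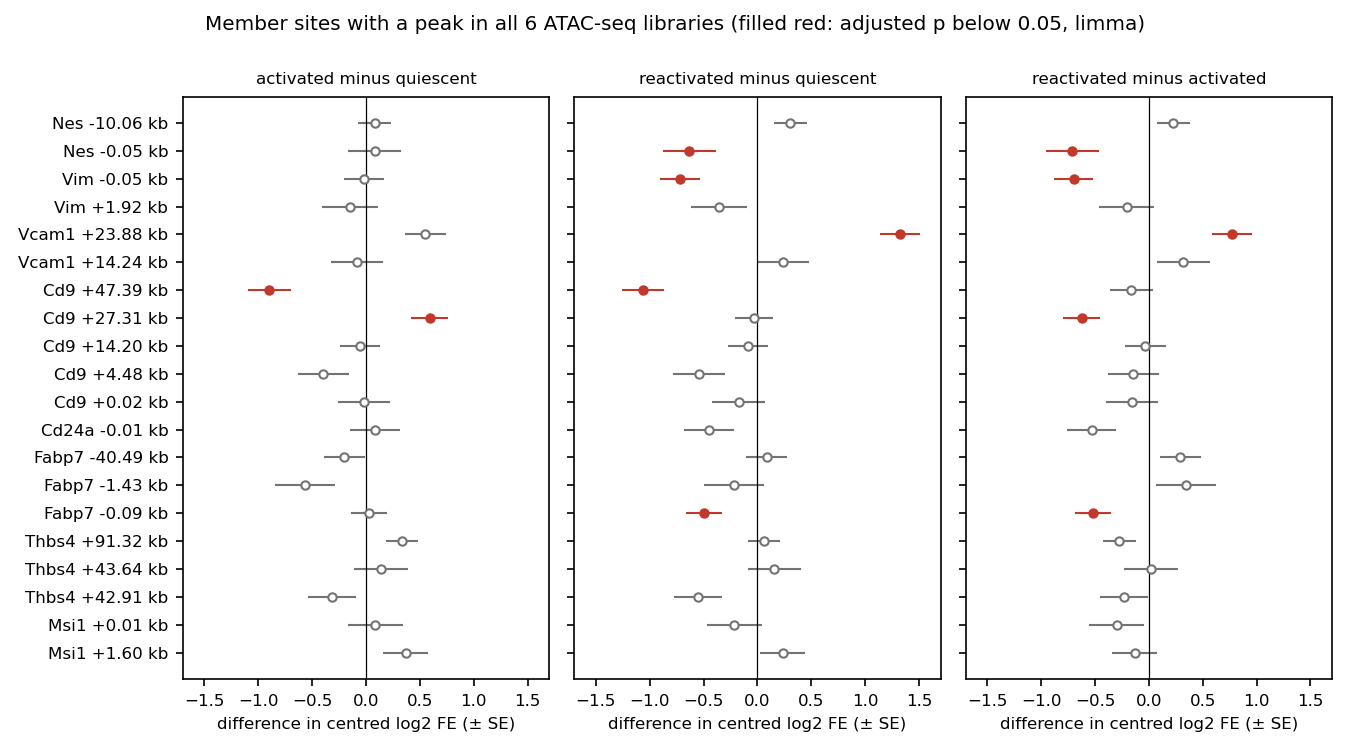
Difference in centred log2 FE (± SE, limma) at the 20 member sites with a peak in all 6 libraries, with 1 panel per comparison and the distance from the TSS in kb beside each gene. Filled red points have an adjusted p below 0.05. The *Vcam1* site at 23.9 kb stands to the right in both comparisons with reactivated cells, and the *Cd9* sites at 47.4 and 27.3 kb lie on opposite sides of 0 in activated minus quiescent cells.

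*Nes* (chr3:87971078-87980451, forward strand) had its strongest site 10.1 kb upstream, between genes (chr3:87960580-87961199), whose stretch with 2 GGGCGG matches is printed above. Its FE was 8.28 and 7.07 in the quiescent libraries, 10.4 and 8.51 in the activated and 15.6 and 19.2 in the reactivated ones. The reactivated libraries were above all others and the activated above the quiescent, but after centring none of the 3 comparisons passed the test (reactivated minus quiescent 0.31 ± 0.15 (SE) in log2, limma adjusted p = 0.123). Without centring, or with quantile normalization, the last difference was called as higher. The *Nes* promoter site was modest, with an FE of 3.67 and 3.74 in quiescent libraries, 5.99 and 3.49 in activated and 3.81 and 5.05 in reactivated libraries. The activated values lay on both sides of the quiescent ones, and both reactivated values lay above the quiescent ones, that of replicate 1 only just. Relative to the library medians, however, the promoter was lower in reactivated than in quiescent cells (log2 −0.63 ± 0.25 (SE), limma adjusted p = 0.0472) and than in activated cells (log2 −0.71 ± 0.25, adjusted p = 0.0413). These calls were lost or turned in 9 and 10 of 14 alternatives.

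The second intron of rodent *Nes* is known for an enhancer used in neural progenitors. The site in intron 2 (chr3:87973721-87974648, 3.33 kb from the TSS) had no peak in quiescent replicate 1, an FE of 2.83 in quiescent replicate 2, 8.25 and 6.78 in activated and 5.58 and 5.72 in reactivated libraries. Every activated and reactivated value lay above the single quiescent one. The missing peak kept it out of the main test. With missing values set to the lowest FE of the library, or to its 1st percentile (a choice made after the data were seen), the site was called higher in activated than in quiescent cells. This call rests on a filled value for quiescent replicate 1, which was not measured. Of all sites, 6.32% and 7.87% were called higher with these 2 fills. The activated-specific *Nes* site lay 11.3 kb from the TSS, beyond the end of the gene, with an FE of 5.13 and 3.52 in activated and 3.32 and 3.70 in reactivated libraries and no quiescent peak. Intron 1 had a weak site, called in activated replicate 1 and both reactivated libraries, and 3 more weak sites lay 10.5 to 11.9 kb from the TSS.

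*Vim* (chr2:13573927-13582826, forward strand) had a strong promoter site (chr2:13573499-13574663) with nearly the same FE in all libraries. The values were 7.34 and 8.37 in quiescent libraries, 9.13 and 8.90 in activated and 8.28 and 9.19 in reactivated cells, and the reactivated values overlapped those of both other states. Relative to the library medians the value was lower in reactivated than in quiescent cells (log2 −0.72 ± 0.18 (SE), limma adjusted p = 0.00377) and than in activated cells (−0.70 ± 0.18, adjusted p = 0.00967). Without centring the difference from quiescent cells was 0.16, with the opposite sign. A site in intron 2 had an FE of 2.26 to 5.21 over the 6 libraries and was not called in any comparison. The activated-specific site, 1.52 kb upstream, was among the weakest of all (2.33 and 1.99 in activated, 2.99 and 2.57 in reactivated libraries).

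*Prom1* (chr5:43993620-44102032, reverse strand) had no site with a peak in all 6 libraries. The site nearest the 5′ end (chr5:44100402-44101631, summit 0.986 kb from the nearest annotated TSS, which lies inside the gene) had no peak in quiescent replicate 1. Its FE was 2.83 in quiescent replicate 2, 4.13 and 3.99 in activated and 7.12 and 6.78 in reactivated libraries. No value of 1 state fell within the range of another. A site 49.9 kb upstream, just inside the window, was called in quiescent replicate 2 (2.06), activated replicate 2 (5.85) and both reactivated libraries (9.64 and 10.8). The site 4.47 kb upstream was called in activated replicate 1 (3.45) and in both reactivated libraries (6.00 and 7.82).

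*Vcam1* (chr3:116109949-116129688, reverse strand) had the largest difference between states among the 20 sites tested. The site 23.9 kb downstream of its TSS, beyond the 3′ end of the gene (chr3:116104866-116105346), had an FE of 3.81 and 5.12 in quiescent libraries, 7.69 and 7.42 in activated and 20.0 and 20.5 in reactivated libraries. The 3 states did not overlap, and this is the stretch with SOX, POU, NFI and NFY letters above. Relative to the library medians it was 2.50-fold higher in reactivated than in quiescent cells (log2 1.32 ± 0.19 (SE), limma adjusted p = 2.85e-05) and 1.71-fold higher than in activated cells (0.77 ± 0.19, adjusted p = 0.00686), where the sign turned with missing values set to the lowest FE (−0.034). With them set to the 1st percentile of FE, the difference from activated cells was 0.39 and was not called (limma adjusted p = 0.175). Activated minus quiescent was 0.55 ± 0.19, with a limma adjusted p of 0.0542, which missed the threshold, and it passed without centring (adjusted p = 0.0194), with missing values set to the 1st percentile of FE (0.00946) and without quiescent replicate 2 (0.0178). The call against quiescent cells held in 13 of 14 alternatives and was lost where missing values were set to the lowest FE (adjusted p = 0.311).

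The *Vcam1* promoter was split into a pair of sites. The stronger one had an FE of 6.05 and 3.59 in quiescent libraries, 4.24 and no peak in activated, and 8.95 and 10.7 in reactivated libraries, so that the reactivated values were above the rest. The weaker one had a peak in the reactivated libraries alone (2.91 and 3.18). In intron 7, a site with an FE of 4.60 and 3.44 in quiescent libraries, 5.84 and 3.28 in activated and 8.0 and 9.21 in reactivated libraries was not called after centring. Its neighbour in intron 8 was called in 4 libraries and was also highest in the reactivated ones (8.35 and 7.42).

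*Cd9* (chr6:125460266-125494791, reverse strand) held sites that went in opposite directions. The site 47.4 kb downstream of the TSS, past the end of the gene (chr6:125447115-125447639), had an FE of 9.23 and 8.55 in quiescent libraries, 6.76 and 4.56 in activated and 7.87 and 7.71 in reactivated libraries. The quiescent values were the highest. Relative to the medians the site was lower in activated than in quiescent cells (log2 −0.90 ± 0.20 (SE), limma adjusted p = 0.00312) and lower in reactivated than in quiescent cells (−1.06 ± 0.20, adjusted p = 0.000316). The call between activated and quiescent cells held in 12 of 15 alternatives, among them each library left out. Without centring the adjusted p was 0.0707 against activated cells and 0.48 against reactivated cells. Its 200 bp stretch had none of the 8 motifs.

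In intron 2, 27.3 kb from the TSS (chr6:125467200-125467774), the FE of *Cd9* was 6.11 and 7.21 in quiescent libraries, 11.4 and 11.9 in activated and 11.3 and 12.5 in reactivated libraries. The quiescent values lay below all others. Relative to the medians this site was 1.51-fold higher in activated than in quiescent cells (log2 0.59 ± 0.17 (SE), limma adjusted p = 0.0254). It was lower in reactivated than in activated cells on the centred scale (−0.62 ± 0.17, adjusted p = 0.0144), although the uncentred values overlapped and their difference was 0.03. The call between activated and quiescent cells held in 10 of 15 alternatives. It was lost without the trend (limma adjusted p = 0.0724), with the median of subpeaks (0.168) and with missing values set to the lowest FE (0.202). Without quiescent replicate 1 or activated replicate 2 it was lost too (log2 0.39 and 0.46).

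The 3 quiescent-specific sites of *Cd9* lay in intron 1, in intron 2 and upstream. That in intron 1 (chr6:125477011-125477576, 17.4 kb from the TSS) had an FE of 5.16 and 4.55 in the quiescent libraries and a peak in no other library. That in intron 2, 22.7 kb from the TSS, was weak (2.73 and 2.50 in quiescent and 1.98 in reactivated replicate 1). The site 18.3 kb upstream had an FE of 5.65 and 2.29 in quiescent and 4.54 and 5.05 in reactivated libraries, with no activated peak. Among the other sites of the gene, those 14.2 and 4.48 kb from the TSS in intron 1 and the promoter site at 0.024 kb had a peak in all 6 libraries and were not called in any comparison. The promoter site had an FE of 3.33 and 2.87 in quiescent libraries, 3.22 and 3.94 in activated and 4.62 and 5.44 in reactivated libraries.

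At *Cd24a* (chr10:43578284-43584265, forward strand), the promoter site had an FE of 4.97 and 4.51 in quiescent libraries, 5.52 and 6.23 in activated and 5.85 and 6.94 in reactivated libraries. Quiescent values were the lowest, and no comparison passed the test after centring. The activated-specific site, 1.03 kb from a TSS and touching the promoter window, had an FE of 4.82 and 2.66 in activated and 3.57 and 3.30 in reactivated libraries. A site 16.1 kb upstream was called in quiescent replicate 2 (3.59), activated replicate 1 (5.04) and both reactivated libraries (4.54 and 4.52).

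*Fabp7* (chr10:57784881-57788450, forward strand) had the promoter with the highest rank among the 9 genes, at a mean percentile of 87.3 within the libraries (missing peaks counted as 0). Its FE was 8.02 and 7.85 in quiescent libraries, 9.67 and 9.19 in activated and 10.1 and 10.5 in reactivated libraries. The states did not overlap, and the reactivated values were above the quiescent ones but by less than the library medians, so that the centred value was lower in reactivated than in quiescent cells (log2 −0.50 ± 0.17 (SE), limma adjusted p = 0.0230) and than in activated cells (−0.52 ± 0.17, adjusted p = 0.0288). Without centring the differences were 0.38 and 0.13. Each call held in 7 of 15 alternatives and was lost or turned in the rest. The site 40.5 kb upstream (chr10:57743604-57744718) had an FE of 8.15 and 5.50 in quiescent libraries, 7.69 and 5.99 in activated and 13.9 and 12.3 in reactivated libraries and was not called after centring. A site 1.43 kb upstream had a peak in all libraries (2.51 to 6.96), and its neighbour at 1.11 kb in the reactivated libraries alone (3.38 and 2.73).

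*Thbs4* (chr13:92751590-92794818, reverse strand) was the only member with no promoter peak in the quiescent and activated libraries. Its promoter site (chr13:92794519-92794873) had an FE of 3.87 and 5.19 in the reactivated libraries. Its strongest sites lay far from the TSS. The site 91.3 kb downstream, inside the neighbouring gene *Serinc5* (chr13:92703177-92704036), had the highest mean percentile of all 64 sites (94.5), with an FE of 7.80 and 9.40 in quiescent libraries, 13.3 and 11.9 in activated and 16.2 and 16.5 in reactivated libraries. The states did not overlap, and no difference passed the test after centring (activated minus quiescent 0.33 ± 0.15 (SE), limma adjusted p = 0.152). The last intron, intron 21, held a site with an FE of 5.50 to 7.99 over the 6 libraries that was not called either. The activated-specific site, 60.9 kb from the TSS and past the end of the gene, had 3.85 and 3.57 in activated and 3.97 and 3.19 in reactivated libraries. A site 53.8 kb from the TSS was called in activated replicate 1 and in both reactivated libraries (5.04, 3.77 and 4.65).

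*Msi1* (chr5:115429599-115455698, forward strand) had its activated-specific site 31.0 kb upstream, within the annotated gene *Gm13832* (chr5:115398421-115398783). Neither quiescent library had a peak there, the activated libraries had an FE of 3.85 and 2.99, and the reactivated ones 11.2 and 9.97. The reactivated values lay above the activated ones. The 200 bp stretch of this site is rich in GC (73.5%). In intron 6, a site had an FE of 4.65 and 4.76 in quiescent libraries, 8.89 and 5.63 in activated and 8.93 and 11.5 in reactivated libraries, with the quiescent values lowest, and was not called after centring. The promoter site had an FE of 3.03 and 3.13 in quiescent libraries, 3.25 and 4.49 in activated and 4.85 and 4.90 in reactivated libraries.

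**Figure D3:**
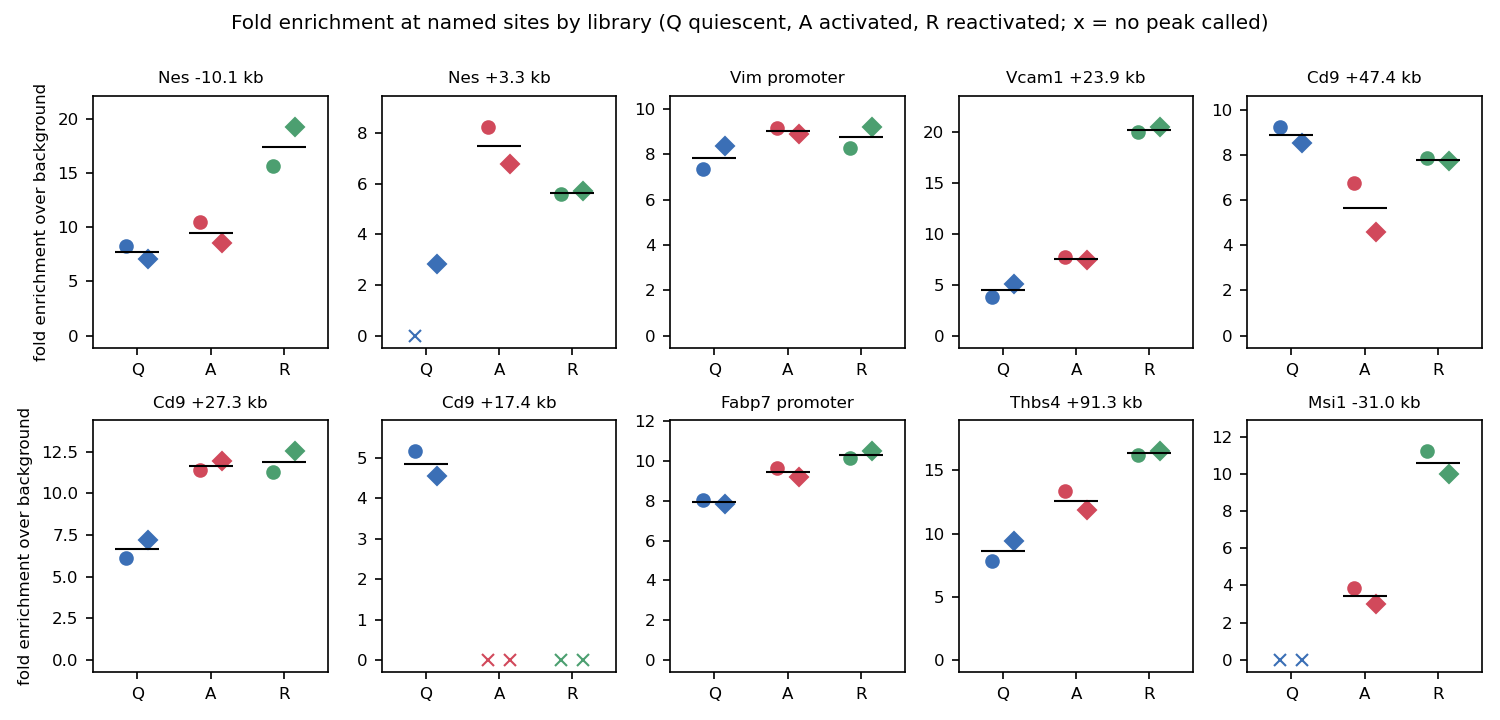
FE over background at 10 sites in each of the 6 ATAC-seq libraries (Q quiescent, A activated, R reactivated; circles are replicate 1, diamonds replicate 2, lines the mean where both libraries had a peak, and a cross at 0 a library with no peak). FE is not scaled between libraries. The quiescent values are highest at *Cd9* 47.4 kb, and the reactivated values stand above the rest at *Vcam1* 23.9 kb and *Msi1* 31.0 kb.

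Ranked by the mean percentile of the strongest promoter site, the genes followed the order *Fabp7* (87.3), *Vim* (84.6), *Cd24a* (66.2), *Vcam1* (56.5), *Nes* (45.2), *Prom1* (42.3), *Msi1* (38.7), *Cd9* (37.2) and *Thbs4* (14.5). Outside promoters the order was *Thbs4* (94.5), *Nes* (91.0), *Cd9* (88.6), *Fabp7* (83.1), *Vcam1* (79.1), *Msi1* (75.1), *Prom1* (40.7), *Cd24a* (33.0) and *Vim* (28.6). By this mean over the 6 libraries, with a missing peak counted as 0, the strongest open site was a distal or intronic one at *Thbs4*, *Nes*, *Cd9*, *Vcam1* and *Msi1* and the promoter at *Vim*, *Cd24a*, *Fabp7* and *Prom1*. At *Vcam1*, *Fabp7* and *Prom1* the order was not the same in every library. In quiescent replicate 1 the *Vcam1* promoter site was at the percentile 75.1 and its distal site at 42.2, and the distal site of *Fabp7* was at 87.2 and its promoter site at 86.6. In activated replicate 2 the distal site of *Prom1* was at 68.8 and its promoter site at 40.7. In the reactivated libraries the distal site of *Prom1* was at the percentiles 84.2 and 87.4 and its promoter site at 71.8 and 69.2. Those of *Fabp7* were at 94.8 and 91.0 and at 85.9 and 86.3.

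H3K4me3 overlapped a TSS of 7 of the 9 genes in both libraries, a count that was not compared with other protein-coding genes. *Thbs4* had no H3K4me3 peak in either state. At *Prom1* the mark lay inside the gene and ended short of the 5′ TSS, with an FE over input of 15.5 in quiescent and 10.8 in activated cells. The largest difference was at *Nes*, where the broad peak over the promoter and the first introns (chr3:87970232-87975092), which includes the intron 2 site printed above, had an FE of 16.4 in quiescent and 46.8 in activated cells. Centred on the median of 15572 pairs of overlapping peaks, this was a 3.08-fold higher value in activated cells, above 99.98% of the pairs. At the *Msi1* promoter the FE was 17.8 in quiescent and 29.1 in activated cells, or 1.76-fold higher after centring, above 99.3% of pairs. These 2 were the only ones of 14 member pairs to reach 1.5-fold, a size that 2.76% of all pairs reached upward and 3.38% downward. With 1 library per state there was no replicate check.

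Among the other promoters, the FE of H3K4me3 was 40.8 in quiescent and 39.6 in activated cells at *Vim*, 44.6 and 35.9 at *Cd9*, 50.9 and 42.7 at *Cd24a*, 31.2 and 29.4 at *Fabp7* and 6.06 and 7.22 at *Vcam1*. *Vcam1* was the lowest of the genes with a marked TSS. Away from TSSs, H3K4me3 was found in both states at the *Nes* site 10.1 kb upstream (11.9 and 9.23), at the *Vcam1* introns (8.89 and 9.07), at the *Fabp7* site 40.5 kb upstream (4.68 and 3.97) and at the *Msi1* intron 6 site (5.74 and 4.42). Weak peaks were also found in both states in intron 1 of *Cd9* (3.93 and 3.18) and 33.3 kb upstream of *Prom1* (3.62 and 3.80). The upstream *Msi1* site, which had ATAC-seq peaks in activated and reactivated cells, had H3K4me3 in the quiescent library alone (3.96). In all, 28 of the 64 ATAC-seq sites overlapped H3K4me3 in either state, against 22.5% of all 108367 sites. Outside promoters these were 15 of 50, against 8.07% of all such sites, and the difference was not tested.

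**Figure D4:**
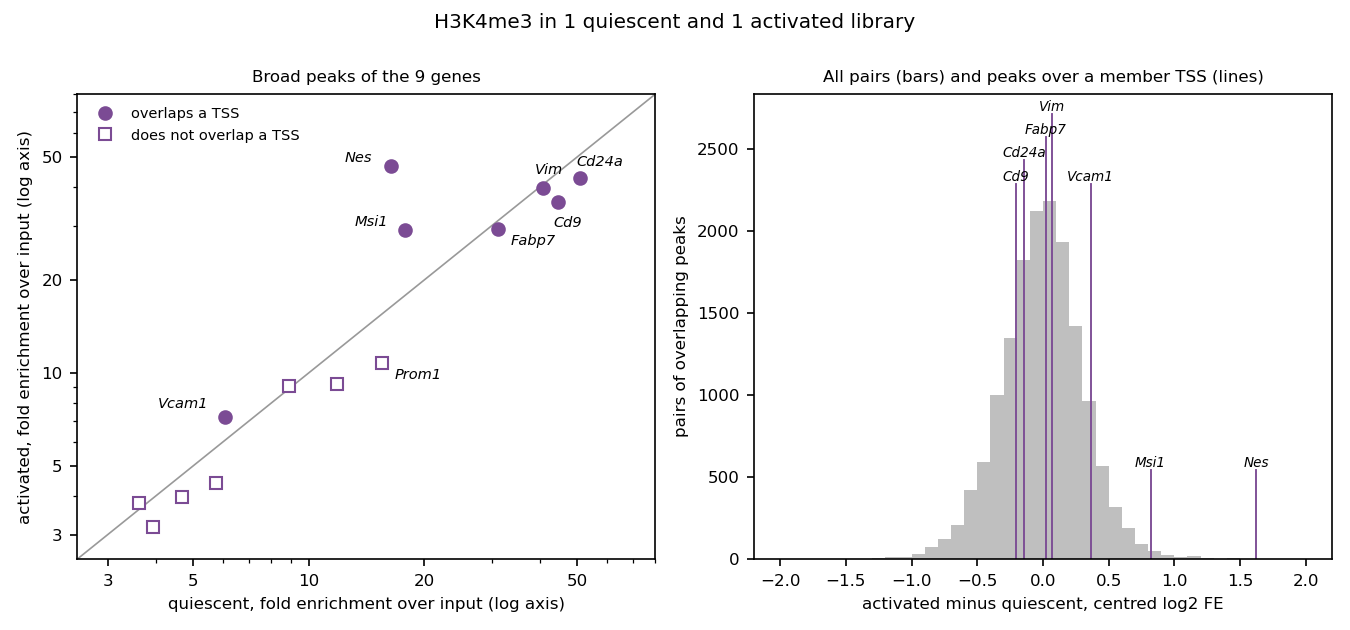
H3K4me3 FE over input at the broad peaks of the 9 genes in 1 quiescent and 1 activated library (left, log axes, line of equal values) and the centred log2 difference at the peaks over a member TSS against all 15572 pairs of overlapping peaks (right, values beyond 2 drawn in the last bar). *Nes* (16.4 and 46.8) and *Msi1* (17.8 and 29.1) lie above the line, and the other TSS peaks lie within the bulk of the pairs.

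A list of 16 further neural stem cell genes (*Sox2*, *Sox1*, *Sox9*, *Slc1a3*, *Gfap*, *Hes1*, *Hes5*, *Nr2e1*, *Pax6*, *Fut4*, *Gja1*, *Itgb1*, *Itga6*, *Msi2*, *Tnc* and *Egfr*) had 175 sites by the same rule, of which 40 at 15 genes had a peak in all 6 libraries. Of these 40 sites, 5 were higher and 3 lower in activated than in quiescent cells, 4 higher and 10 lower in reactivated than in quiescent cells, and 2 higher and 7 lower in reactivated than in activated cells. The background shares are those given for the 9 genes. Promoter peaks were called at 13 to 15 of the 16 genes in each library, a count that was not compared with all protein-coding genes.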

How the data were processed

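ATAC-seq peak lists of 6 libraries and H3K4me3 peak lists of 2 libraries were used. The authors trimmed the reads with Trim Galore 0.4.0, aligned them to mm10 with Bowtie2 2.2.5, processed them with Picard 1.88 and SAMtools 1.3.1 and called peaks per library with MACS (FDR 0.05). Reads of the reactivated libraries had been downsampled by the authors. H3K4me3 was called as broad peaks against input. The deposited fold enrichment is a linear ratio of pileup to background, not scaled between libraries. The −log10 p and −log10 q values that the authors deposited belong to 1 library each and are larger in deeper ones. The deposited score repeats the q and was not used. Summits are deposited as offsets from the start of a peak. The background pileup of a library was estimated as the value at which the most deposited p-values matched a Poisson model of whole-number pileups. The matching share ranged from 43.0% (reactivated replicate 1) to 71.0% (quiescent replicate 2) of the peaks examined. Read numbers were not used here.

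Peaks that overlap or abut in any of the 6 ATAC-seq lists were merged into sites, and the highest FE of a library's peaks was taken at each site. TSSs of protein-coding transcripts and gene models came from GENCODE M21, and sequence from the RefSeq copy of GRCm38.p6, whose chromosome lengths hold all summits. Log2 FE was tested with limma 3.58.1 in R 4.3.3 (all 3 states in 1 fit, empirical Bayes with a trend, called at an adjusted p of 0.05). The fit and the motif search were tested on simulated data. H3K4me3 differences of 1.5-fold or more were counted, without a test. Python 3.11.15, pandas 2.3.3, numpy 2.4.6 and matplotlib 3.10.9 were used.

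Every member is described. The sites named for each are its promoter site, its strongest site outside promoters, every site called and every site specific to quiescent or activated cells, and other sites were named after their values were seen. The 9 genes, the lists and the tests were chosen with earlier results of these data known. Alternatives were a minimum −log10 q of 10, lists of equal length, a window of 25 kb, other ways of merging and of finding the nearest TSS, other scalings, missing values filled in, a replicate block and each library left out. Some marker genes are not reported here.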

Additional observations from a re-analysis of the deposited data

How the results depend on the processing

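The number of member sites stayed within 1.5 times of 64 in all alternatives run, from 44 (−log10 q of 10 or more) to 69. With −log10 q of 10 or more, 11 sites had a peak in all libraries and 2 were activated-specific. With lists of equal length, 1 was quiescent-specific and 0 open in reactivated cells alone. With each library left out, the quiescent-specific sites ranged from 3 to 8, the activated-specific from 5 to 10 and those of reactivated cells alone from 5 to 11. A class asks for fewer peaks when a library is left out, so these counts tend to rise by construction. None of the counts in these classes was set against all sites under the same change.

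Member sites called in activated against quiescent cells, 2 of 20 in the main analysis, became 1 each with the median of subpeaks and without the trend. With missing values set to the lowest FE the member calls became 5 (all higher) of 52. Neither *Cd9* call of the main analysis was among them (limma adjusted p = 0.77 at 47.4 kb and 0.202 at 27.3 kb). With missing values set to the 1st percentile the member calls became 7 (5 higher, 2 lower) of 52. Of all sites, 6.32% and 7.87% were called higher with these 2 fills, and smaller shares lower. Member sites called in reactivated against quiescent cells, 5, became 12 without centring. They became 3 each with −log10 q of 10 or more (11 sites tested) and the median of subpeaks. Of all sites, 10.8% were called higher and 22.3% lower with the former, and 6.52% and 9.33% with the latter. With missing values set to the lowest FE and the 1st percentile the member calls became 2 (1 higher, 1 lower) and 16 (3 higher, 13 lower) of 52. Of all sites, 0.831% and 6.35% were then called higher and 1.47% and 22.9% lower. With the lowest FE none of the 5 main calls held (limma adjusted p from 0.239 to 0.589), so those 2 calls were at other sites. Member sites called in reactivated against activated cells, 5, became 0 and 17 (all lower) of 52 with missing values filled in these 2 ways. Over all sites, where the filled fits also test more sites, the calls went from 5134 to 324 and 19473, most of them lower. The member calls became 2 of 11 with −log10 q of 10 or more and 1 of 20 with the median of subpeaks. Of all sites, 7.15% were called higher and 11.9% lower with the former, and 2.57% and 3.71% with the latter. With only these 2 states in the fit, which tests more sites, the member calls became 10 (2 higher, 8 lower) of 28. Of all sites, 5.80% were then called higher and 15.9% lower. Leaving out 1 library gave 2 to 3, 3 to 6 and 0 to 5 calls, and none in the last comparison without either reactivated library. Over all sites, the 3098, 8589 and 5134 calls ranged from 507 to 9022, 1718 to 21861 and 324 to 19473. The fill with the 1st percentile was chosen after the data were seen, and it treats a missing peak as a measured value.

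Signs turned without centring for reactivated against quiescent cells at the promoters of *Vim* (0.16), *Nes* (0.24) and *Fabp7* (0.38), and against activated cells at *Cd9* 27.3 kb (0.028) and the *Fabp7* promoter (0.13). They also turned against activated cells at *Vcam1* 23.9 kb with the lowest FE for missing values (−0.034) and at the *Fabp7* promoter with the median of subpeaks (0.011). The cause was not tested. The H3K4me3 count of 2 became 1 at a fold of 2.

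Replicate numbers did not pair the libraries: deviations of same-numbered libraries correlated at −0.0013, 0.042 and −0.017 between the states. With the replicate block, the calls were 3, 5 and 5. In activated against quiescent cells *Vcam1* 23.9 kb was added (limma adjusted p = 0.0423). In reactivated against quiescent cells the *Nes* promoter was lost (0.0526) and the intron 21 site of *Thbs4* was added (log2 −0.55, 0.0473). Depth and FE limit these lists: an FE under about 2 is not seen, and the precision rests on 2 libraries per state.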
